A study of Mus musculus with 20 samples.

Results

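The kidneys of 12 F1 Col4a3-/- mice were compared, 6 treated with anti-miR-21 and 6 with vehicle (Veh), out of 20 kidneys sequenced in the study. The mice were taken by their group label alone, and every gene with enough reads was tested. All 20 were 129SJ x C57Bl/6J mice, and the 12 compared here were Col4a3-/- in every cell, so the controls also lacked the alpha 3 chain of type IV collagen. The anti-miR-21 group received lademirsen under the skin at 50 mg/kg once weekly from 5 weeks of age, the Veh group received PBS on the same schedule, and both were killed at 15 weeks. The other 8 mice were 5 untreated wild type (WT) mice, whose values are given below for orientation with no test, and 3 Col4a3-/- mice given the ACE inhibitor ramipril in drinking water (ACEi). The whole kidney was the sample, 1 library per mouse, so fewer cells of a type and less RNA per cell cannot be told apart in any value below.

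Col4a3-/- mice are a model of Alport syndrome, in which the glomerular basement membrane lacks its mature type IV collagen network, the filter leaks protein, and the tubules degenerate as the interstitium fills with matrix and leukocytes. miR-21 is a microRNA that is abundant in injured kidneys, and lademirsen is a complementary oligonucleotide that binds it. A microRNA directs its protein complex to mRNAs that pair with its seed, the bases near its 5′ end, mostly in the 3′ UTR, and lowers the stability or translation of these mRNAs.

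The mouse miR-21 mature sequence from RefSeq (GRCm38.p6, chr11:86584120-86584141, - strand, within the hairpin gene Mir21a) is shown because it is the molecule targeted, with the seed (bases 2 to 8) in capitals. A complementary match lies in the 3′ UTRs of many genes, and below it are the sites in the 3 known targets that rose in treated kidneys (Ppara, Timp3, Mpv17l) and in 4 that fell (Pdcd4, Spry1, Reck, Jag1), each as 22 bases of the sense strand with the match in capitals. These 7 were picked with their fold changes in view.
mmu-miR-21a-5p: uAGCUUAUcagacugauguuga
Ppara: tcgagaatagtttgATAAGCTA
Timp3: tttttgagctttcaATAAGCTA
Mpv17l: taaattgctgaactcTAAGCTA
Pdcd4: gtgtgggtgttctgATAAGCTA
Spry1: atgtaagtgcttaaATAAGCTA
Reck: ttttacagtttgaaATAAGCTA
Jag1: tagggagtattctcATAAGCTA
In GRCm38 these sites lie in the 3′ UTR at chr15:85801815-85801836 (+) for Ppara, chr10:86348213-86348234 (+) for Timp3, chr16:13948554-13948575 (+) for Mpv17l, chr19:53929418-53929439 (+) for Pdcd4, chr3:37643859-37643880 (+) for Spry1, chr4:43944393-43944414 (+) for Reck and chr2:137081738-137081759 (-) for Jag1.

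Library totals were nearly equal, at 28474272 to 29253400 estimated counts in Veh and 28630564 to 29479600 in anti-miR-21-treated kidneys. Levels are given as CPM, counts scaled to a common library size, after TMM scaling, and the level of a gene list in a mouse is the mean log2 CPM of its tested members. Col4a3 itself was at 27.9 to 46.3 CPM in Veh, 45.9 to 74.9 CPM in anti-miR-21-treated and 194 to 238 CPM in WT kidneys. The extraction label mentions adipose tissue while the tissue label says kidney: kidney markers were abundant in all 12 libraries, and adipocyte markers such as adiponectin were high only in mice A1, A4 and A9 (Veh) and A12 (treated), with list levels of 4.4, 4.84, 2.85 and 4.23 against at most 1.75 in the other 8 mice. Urothelial markers were high in the Veh mice A1 and A4 (levels 5.06 and 4.36), and liver transcripts appeared in the Veh mouse A20. Among the Veh mice A16 stood nearest to treatment: of the 57 gene lists whose levels did not overlap between the groups, it was the Veh mouse closest to the treated range in 37.

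At a Benjamini-Hochberg adjusted p under 0.05 in edgeR, 10440 of 17622 genes tested (59.2%) differed between anti-miR-21-treated and Veh kidneys, 5073 higher (28.8%) and 5367 lower (30.5%); the number of list members called is to be read against these shares. In 6419 genes (36.4%) the 6 treated mice and the 6 Veh mice did not overlap, and 1309 genes (7.43%) were called at least 2-fold higher and 1704 (9.67%) at least 2-fold lower. The median log2 fold change over all genes was -0.04. With library totals alone in place of TMM this median was -0.38, and 20% of calls were higher instead of 48.6%, so small differences in either direction depend on the scaling, and fold changes are best read relative to these medians.

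The proximal tubule, which reabsorbs most of the filtered load and clears organic anions, showed the broadest rise among the nephron segments. All 7 markers of its early segments and all 5 of its late segment rose, with median log2 fold changes of 1.42 and 2.48. Slc34a1, the sodium phosphate cotransporter of the brush border, was at 788 to 2330.3 CPM (median 1224) in Veh and 3976 to 6895 CPM (median 4866) in anti-miR-21-treated kidneys (log2 fold change 1.96 ± 0.22 (SE), adjusted p = 3.5e-07), and WT kidneys held 7513 to 9932 CPM (median 8459.8). Slc22a6, the basolateral organic anion transporter OAT1, was at 128 to 509 CPM (median 229) in Veh and 1053 to 1698 CPM (median 1214) in treated kidneys (log2 fold change 2.30 ± 0.27 (SE), adjusted p = 6.6e-07). The treated mice lay above every Veh mouse for both genes and below or within the WT range. Slc5a2, the luminal glucose transporter SGLT2, rose less, from a Veh range of 120.3 to 196 CPM (median 152) to 246 to 346 CPM (median 314) (log2 fold change 0.98 ± 0.14 (SE), adjusted p = 8.7e-06). The largest marker changes were in the late segment, where the amino acid transporter Slc7a13 was at 7.56 to 127 CPM (median 44.8) in Veh and 418 to 1117 CPM (median 664) in treated kidneys (log2 fold change 3.76 ± 0.48 (SE), adjusted p = 1.7e-06), and the organic anion transporter Slc22a7 at 0.797 to 20.6 CPM (median 4.86) and 47.8 to 229.9 CPM (median 89.9) (log2 fold change 3.97 ± 0.61 (SE), adjusted p = 1.4e-05). The 6 Veh mice differed widely among themselves in these late markers while the groups still did not overlap.

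Of 29 further proximal transporters, 26 rose and 1 fell, and the groups did not overlap for 24. Slco1a1, an organic anion transporting polypeptide, rose by 3.66 ± 0.41 (SE) on the log2 scale, and Slc22a12, the urate exchanger URAT1, by 2.22 ± 0.26. The one that fell was Abcc4, an efflux pump of the apical membrane (log2 fold change -0.61 ± 0.14 (SE), adjusted p = 7.5e-04). Protein uptake followed the same direction: 8 of 9 members rose and the groups overlapped for none of the 9. Lrp2, which encodes the endocytic receptor megalin, was at 179.7 to 459.7 CPM (median 284) in Veh and 871 to 1389.7 CPM (median 1094) in treated kidneys (log2 fold change 1.92 ± 0.19 (SE), adjusted p = 1.0e-07), close to the WT range of 1304 to 1801 CPM (median 1437). Its partner Cubn, cubilin, was at 72.2 to 134 CPM (median 88.5) and 225 to 331 CPM (median 278) (log2 fold change 1.59 ± 0.15 (SE), adjusted p = 5.9e-08). Ocrl, a phosphatase of endosomal traffic, was the member that fell (log2 fold change -0.30 ± 0.059 (SE), adjusted p = 2.1e-04).

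**Figure D1:**
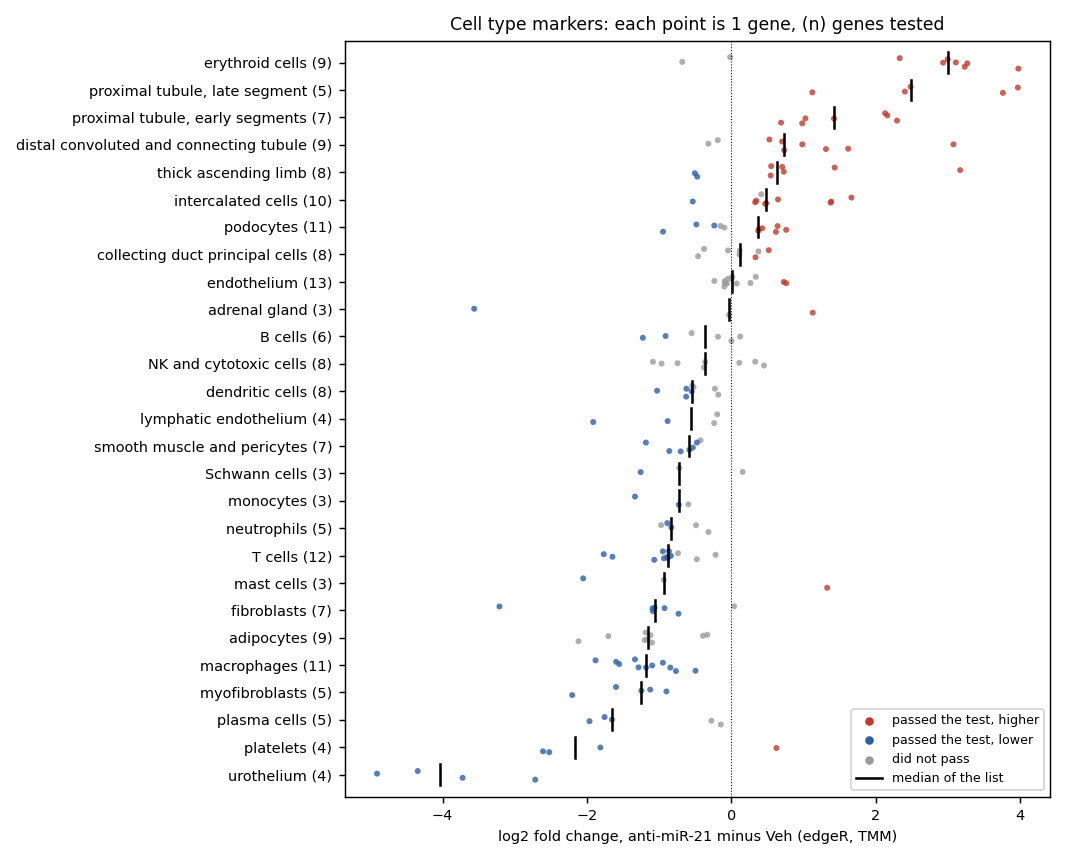
Log2 fold change (anti-miR-21 minus Veh) of each tested marker gene on the x axis, by cell type on the y axis with the number of genes tested; red and blue points passed the test, grey did not, and the black bar is the list median. Proximal tubule lists lie to the right (medians 1.42 and 2.48), macrophage and fibroblast lists to the left (-1.18 and -1.06), and endothelium and principal cells near 0.

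Most metabolic genes of the tubule rose. Of 46 genes of amino acid breakdown, 44 rose with a median of 1.51, and for 43 the groups did not overlap. Hpd, the tyrosine pathway dioxygenase, was at 0.420 to 6.02 CPM (median 1.29) in Veh and 19.3 to 63.5 CPM (median 39.9) in anti-miR-21-treated kidneys (log2 fold change 4.28 ± 0.48 (SE), adjusted p = 4.0e-07), and reached 31.5 to 93.3 CPM (median 43.9) in WT. Bhmt, which remethylates homocysteine from betaine, went from 0.224 to 2.03 CPM (median 0.413) to 4.36 to 11.5 CPM (median 7.41) (log2 fold change 3.40 ± 0.43 (SE), adjusted p = 1.5e-06). The Veh mice were spread over more than an order of magnitude for Hpd, whereas the treated mice formed a narrower band above them. Amt, of the glycine cleavage system, had one of the lowest p-values of all genes with a moderate change (log2 fold change 1.28 ± 0.089 (SE), adjusted p = 1.5e-08).

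Genes of mitochondrial fatty acid oxidation, which supplies most proximal tubule energy, and of peroxisomes, which shorten very long chains, behaved alike. In the list of mitochondrial fatty acid oxidation 25 of 26 genes rose (median 1.15), and in the peroxisome list 29 of 30 (median 0.80). Acadm, the medium-chain acyl-CoA dehydrogenase, was at 125 to 378 CPM (median 182) in Veh, 686 to 1128 CPM (median 856) in treated and 1427 to 1626 CPM (median 1457) in WT kidneys (log2 fold change 2.09 ± 0.21 (SE), adjusted p = 1.4e-07). Cpt1a, the gate for fatty acid entry into mitochondria, rose less (log2 fold change 0.74 ± 0.11 (SE), adjusted p = 6.9e-06). For both genes no treated mouse overlapped a Veh mouse. Among the peroxisomal genes Amacr and Acox2, both of branched-chain and bile acid side-chain oxidation, rose most (2.36 ± 0.27 and 2.31 ± 0.23 on the log2 scale).

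All 17 citric acid cycle genes, all 75 nuclear genes of oxidative phosphorylation and all 13 protein genes of the mitochondrial genome rose, with medians of 0.91, 0.80 and 0.98. Cs, citrate synthase, was at 219.9 to 259 CPM (median 236) in Veh and 299 to 359.6 CPM (median 323) in treated kidneys (log2 fold change 0.47 ± 0.061 (SE), adjusted p = 2.3e-06). The largest rises were in Suclg2 (1.22) and Suclg1 (1.21) of succinyl-CoA ligase, Ndufs1 of complex I (1.2) and mt-Nd2, a complex I subunit made inside the organelle (1.21). Together the mitochondrially encoded transcripts took 46088 to 71929 CPM (median 56214) in Veh and 90252 to 133832 CPM (median 117467) in treated kidneys, and the mice did not overlap. The ribosomal proteins of mitochondria rose in 70 of 78 cases but by less (median 0.47), and under library totals alone 35 of the 78 passed as higher and 5 as lower. Ppargc1a, the coactivator of mitochondrial biogenesis, was at 13.2 to 23.8 CPM (median 16.9) in Veh and 27.5 to 37.9 CPM (median 34.7) in treated kidneys (log2 fold change 0.90 ± 0.13 (SE), adjusted p = 6.3e-06). Cytosolic ribosomal proteins went the other way or did not move: 35 of 80 fell and 2 rose (median -0.25), but without the 4 mice with the highest adipocyte levels 3 fell, and without A20 54.

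Genes of glucose production rose together, whereas those of glycolysis went both ways. All 7 genes of gluconeogenesis and fructose metabolism rose (median 1.95), among them Pck1, which makes phosphoenolpyruvate (169 to 459.9 CPM (median 305) in Veh and 807 to 1738 CPM (median 1307) in treated kidneys, log2 fold change 2.11 ± 0.23 (SE), adjusted p = 3.0e-07). G6pc, the glucose-6-phosphatase that releases glucose, was at 40.9 to 191 CPM (median 76.1) and 261 to 581 CPM (median 397) (log2 fold change 2.10 ± 0.32 (SE), adjusted p = 1.1e-05). Khk, ketohexokinase, rose by 2.20 ± 0.17. Glycolysis was mixed, with 9 genes higher and 7 lower of 17. Hk2, the inducible hexokinase, fell from 8.49 to 15.5 CPM (median 11.1) to 2.79 to 4.12 CPM (median 3.55) (log2 fold change -1.69 ± 0.19 (SE), adjusted p = 4.1e-07), while Pgk1 and Tpi1, of the shared lower pathway, rose (0.82 and 0.71). The glycolysis list level did not separate the groups, the treated range lying inside the Veh range, at 7.09 to 7.33 in Veh and 7.17 to 7.22 in treated kidneys. The summed CPM of the same genes, which weighs abundant genes more, was higher in treated kidneys. It was 4563 to 5413 in Veh and 5624 to 7140 in treated mice, without overlap.

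**Figure D2:**
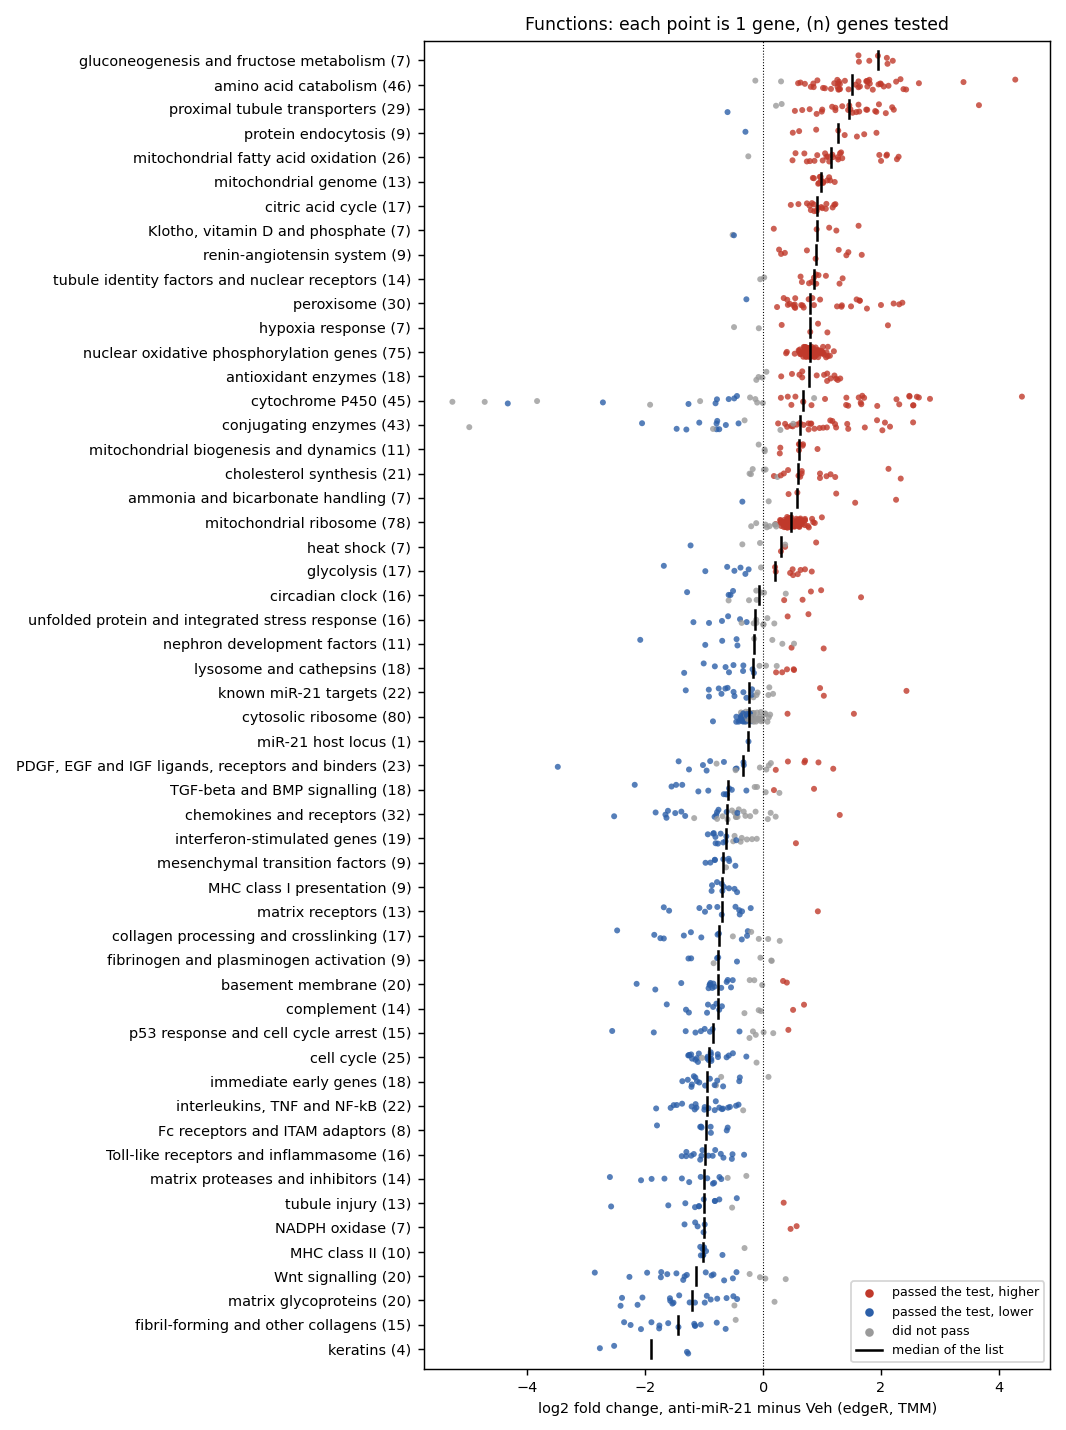
Log2 fold change (anti-miR-21 minus Veh) of each tested gene on the x axis for the functional lists on the y axis, number tested in brackets, colours and bars as for the cell types. Gluconeogenesis, amino acid catabolism and fatty acid oxidation lie at the top (medians 1.95, 1.51 and 1.15), keratins, collagens and matrix glycoproteins at the bottom (-1.91, -1.44 and -1.2).

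Endocrine and protective functions of the tubule rose with these. Kl, which encodes the phosphate hormone coreceptor Klotho, was at 82.0 to 189 CPM (median 120.3) in Veh, 316 to 459 CPM (median 387) in anti-miR-21-treated and 602 to 777 CPM (median 658) in WT kidneys (log2 fold change 1.62 ± 0.16 (SE), adjusted p = 1.3e-07). Vdr, the vitamin D receptor, rose (log2 fold change 1.24 ± 0.12 (SE), adjusted p = 9.6e-08) and Slc20a1, a widely expressed phosphate transporter, fell (log2 fold change -0.50 ± 0.083 (SE), adjusted p = 3.5e-05). Of 18 antioxidant enzymes 14 rose (median 0.78), including Gpx3, the plasma glutathione peroxidase secreted by the proximal tubule, at 7496 to 13764 CPM (median 9403) in Veh and 16766 to 22972 CPM (median 21223) in treated kidneys (log2 fold change 1.09 ± 0.13 (SE), adjusted p = 1.2e-06). Scaled by library totals alone, 12 antioxidant enzymes passed as higher and 4 as lower. The groups did not overlap for Kl, Vdr, Slc20a1 or Gpx3. Of 45 cytochrome P450 genes 26 rose and 8 fell, and of 43 conjugating enzymes 28 rose and 10 fell. Without A20, the Veh mouse with liver transcripts, 6 P450 genes passed as lower. In 6 of the 45 P450 genes no mouse of a group had more than 3 counts. Cyp2d9 (2.83) and Ugt3a1 (2.54) rose, and Sult4a1 (-2.06) fell. These families hold near-identical copies between which reads may be divided.

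Transcription factors that maintain tubule identity moved in the same direction: 11 of 14 rose and the other 3 did not pass. Hnf4a, the master regulator of the proximal tubule, was at 182 to 307 CPM (median 246) in Veh and 484 to 740.1 CPM (median 632) in treated kidneys (log2 fold change 1.35 ± 0.13 (SE), adjusted p = 7.2e-08), with WT at 728 to 935 CPM (median 826). Nr1h4, the bile acid receptor FXR, rose by 1.29 ± 0.20. By contrast the factors of nephron development were split, 2 higher and 5 lower of 11: Lhx1 rose (log2 fold change 1.03 ± 0.12 (SE), adjusted p = 7.1e-07), and Sox11, a factor of immature cells, fell (log2 fold change -2.09 ± 0.35 (SE), adjusted p = 3.4e-05). Cholesterol synthesis rose in 15 of 21 genes (median 0.60), led by Idi1 (2.33) and Cyp51, the lanosterol demethylase, at 31.4 to 66.5 CPM (median 37.7) in Veh and 136 to 244 CPM (median 185) in treated kidneys (log2 fold change 2.13 ± 0.17 (SE), adjusted p = 2.9e-08). Of 7 genes of the hypoxia response 5 rose, among them Car9 (log2 fold change 2.12 ± 0.23 (SE), adjusted p = 2.6e-07). Scaled by library totals alone, 10 cholesterol genes passed as higher and 5 as lower. The same scaling gave 11 higher and 2 lower for the tubule identity factors, and 4 higher and 2 lower for the hypoxia response.

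Beyond the proximal tubule the distal segments rose by smaller amounts. In the thick ascending limb 6 of 8 markers rose and 2 fell, and in the distal convoluted and connecting tubule 7 of 9 rose. Egf, the growth factor precursor made there, stood out at 16.6 to 125 CPM (median 36.5) in Veh, 347 to 760.2 CPM (median 484) in treated and 1003 to 1412 CPM (median 1289) in WT kidneys (log2 fold change 3.17 ± 0.40 (SE), adjusted p = 1.6e-06). Umod, which encodes uromodulin, was at 1796 to 4203 CPM (median 2362) and 3838 to 5118 CPM (median 4652) with overlapping mice (log2 fold change 0.73 ± 0.18 (SE), adjusted p = 0.0015). The tight junction genes Cldn16 and Cldn19, of magnesium and calcium reabsorption, fell by 0.47 ± 0.10 and 0.51 ± 0.16 on the log2 scale. Slc12a3, the thiazide-sensitive cotransporter, was at 117 to 210 CPM (median 143) in Veh and 345 to 424 CPM (median 394) in treated kidneys (log2 fold change 1.31 ± 0.15 (SE), adjusted p = 4.0e-07), and Pvalb, parvalbumin of the same segment, rose by 3.08 ± 0.51. In intercalated cells, which secrete acid or bicarbonate, 8 of 10 rose and 1 fell, with Slc4a1, the anion exchanger, at 1.66 ± 0.29 and Slc26a4, pendrin, at 1.38 ± 0.24. Under library totals alone 4 intercalated markers passed as higher.

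Collecting duct principal cells and the endothelium showed little. Of 8 principal cell markers only Aqp3 (log2 fold change 0.52 ± 0.21 (SE), adjusted p = 0.039) and Scnn1g (log2 fold change 0.34 ± 0.10 (SE), adjusted p = 0.0090) passed, and Aqp3 did not pass without A1, A4, A9, A19, A12, A15 or A22, left out one at a time (adjusted p up to 0.083). Aqp2, the vasopressin-regulated water channel, was at 143 to 403 CPM (median 200.7) in Veh and 142 to 219.05 CPM (median 181) in treated kidneys, overlapping ranges that did not pass (log2 fold change -0.38 ± 0.26 (SE), adjusted p = 0.21). Of 13 endothelial markers 2 passed, Kdr, the VEGF receptor, from 20.9 to 31.0 CPM (median 25.8) to 38.3 to 48.4 CPM (median 45.0) (log2 fold change 0.76 ± 0.19 (SE), adjusted p = 0.0015), and Ehd3, which is enriched in glomerular endothelium (log2 fold change 0.73 ± 0.13 (SE), adjusted p = 9.8e-05). Pecam1, a pan-endothelial adhesion molecule, was at 56.3 to 73.1 CPM (median 62.2) and 54.0 to 71.4 CPM (median 61.8) (log2 fold change 0.0056 ± 0.16 (SE), adjusted p = 0.98). Under library totals alone the medians of both lists turned negative, 4 principal cell and 5 endothelial markers being called lower. The calls for Kdr, Aqp3 and Scnn1g were lost with limma on FPKM.

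Podocyte genes were divided. Nphs1, nephrin of the slit diaphragm, was at 16.4 to 21.8 CPM (median 19.2) in Veh and 27 to 37.5 CPM (median 32.0) in anti-miR-21-treated kidneys (log2 fold change 0.76 ± 0.12 (SE), adjusted p = 2.9e-05). No treated mouse overlapped a Veh mouse, and the WT kidneys held 12.8 to 25.4 CPM (median 18). In all 6 of 11 markers rose and 3 fell, the latter including Plce1, a phospholipase of podocyte signalling (log2 fold change -0.48 ± 0.12 (SE), adjusted p = 0.0023). Under library totals alone 2 podocyte markers passed as higher and 5 as lower, and without the 4 mice with the highest adipocyte levels 6 and 1.

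All 9 tested genes of the renin-angiotensin system rose (median 0.89), 5 of them also under library totals alone. Ren1, renin of the juxtaglomerular cells, was at 23.8 to 37.7 CPM (median 29.3) in Veh, 62.1 to 93.9 CPM (median 82.2) in treated and 41.7 to 98.2 CPM (median 80.4) in WT kidneys (log2 fold change 1.44 ± 0.16 (SE), adjusted p = 4.0e-07). Ace, the converting enzyme that is also a brush border protein, was at 42.5 to 97.9 CPM (median 51.6) and 143 to 243 CPM (median 202.7) (log2 fold change 1.67 ± 0.19 (SE), adjusted p = 4.9e-07). The groups did not overlap for either gene. In the 3 ACEi mice Ren1 was higher again, the difference of anti-miR-21 minus ACEi being -2.67 on the log2 scale (adjusted p = 1.1e-07, edgeR). Only 103 genes (0.584%) differed between the 2 treatments in that test with 3 ACEi mice, and among the genes named here these also included Eln (-1.27, adjusted p = 7.7e-05) and C1qtnf6 (-1.07, adjusted p = 0.0055), both lower with anti-miR-21.

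Stromal markers fell. Of 7 fibroblast markers 6 fell (median -1.06), all 5 myofibroblast markers fell (-1.25), and 6 of 7 smooth muscle and pericyte markers fell (-0.58). Acta2, smooth muscle actin, was at 142 to 226 CPM (median 168) in Veh, 78.9 to 109 CPM (median 95.0) in anti-miR-21-treated and 56.1 to 83.5 CPM (median 58.2) in WT kidneys (log2 fold change -0.90 ± 0.13 (SE), adjusted p = 9.8e-06). Pdgfrb, the receptor of pericytes and fibroblasts, was at 172 to 213 CPM (median 195) and 89.1 to 139 CPM (median 117) (log2 fold change -0.73 ± 0.13 (SE), adjusted p = 6.9e-05). Postn, periostin of activated fibroblasts, was at 13.4 to 21.9 CPM (median 17.4) and 1.98 to 8.24 CPM (median 6.03) (log2 fold change -1.60 ± 0.24 (SE), adjusted p = 1.1e-05). Every treated mouse was below every Veh mouse for these 3 genes. Mfap5, an elastic fibre glycoprotein, had the largest fall of the fibroblast markers (log2 fold change -3.21 ± 0.29 (SE), adjusted p = 5.9e-08), and Dcn, decorin, was the marker that did not pass.

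Most matrix genes fell. Of 15 collagens 14 fell (median -1.44), and of 20 matrix glycoproteins 18 (median -1.2). Col1a1, the main fibrillar collagen chain, was at 1057 to 1315 CPM (median 1179) in Veh, 162 to 411 CPM (median 272) in treated and 35.9 to 83.9 CPM (median 58.6) in WT kidneys (log2 fold change -2.07 ± 0.20 (SE), adjusted p = 1.0e-07). Col3a1 was at 1102 to 1704 CPM (median 1448) and 159.6 to 435 CPM (median 281) (log2 fold change -2.25 ± 0.25 (SE), adjusted p = 2.8e-07). Fn1, fibronectin, was at 414 to 637 CPM (median 507) and 114 to 255 CPM (median 174) (log2 fold change -1.52 ± 0.22 (SE), adjusted p = 6.4e-06). The treated mice lay between the Veh and WT ranges for Col1a1, with no overlap between Veh and treated mice for any of the 3. Eln, which encodes elastin (ENSMUSG00000029675, chr5:134702593-134747323, - strand), had the lowest p-value among the genes that fell (84.7 to 109.6 CPM (median 93.3) in Veh and 19.1 to 28.3 CPM (median 22.8) in treated kidneys, log2 fold change -2.05 ± 0.12 (SE), adjusted p = 4.1e-09). Tnc, tenascin-C, fell by 2.42 ± 0.30 and Ltbp2, a microfibril protein, by 2.40 ± 0.22 on the log2 scale.

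Most enzymes and regulators of the matrix fell with it. Timp3, an inhibitor of matrix proteases that was listed among the miR-21 targets, rose instead. Its means were 806 CPM in Veh and 1573 CPM in treated kidneys (log2 fold change 0.96). Lox, which crosslinks collagen and elastin, was at 61.5 to 97.8 CPM (median 67.0) in Veh and 9.58 to 30.3 CPM (median 19.4) in treated kidneys (log2 fold change -1.85 ± 0.20 (SE), adjusted p = 2.9e-07). Timp1, an inhibitor of matrix proteases, was at 71 to 136 CPM (median 91.1) and 15.9 to 43.8 CPM (median 21.5) (log2 fold change -1.89 ± 0.22 (SE), adjusted p = 5.3e-07). The proteases themselves moved the same way, Mmp9 (log2 fold change -2.60 ± 0.18 (SE), adjusted p = 1.3e-08) and Mmp7 (log2 fold change -2.07 ± 0.35 (SE), adjusted p = 4.8e-05) falling with Timp1. Basement membrane genes were less uniform: 15 of 20 fell and 2 rose. The 2 that rose were Col4a4, a partner chain of Col4a3 (log2 fold change 0.40 ± 0.10 (SE), adjusted p = 0.0013), and Lama1, laminin alpha 1 (log2 fold change 0.34 ± 0.092 (SE), adjusted p = 0.0037), and neither passed with library totals alone or with limma on FPKM, whereas Lamb3 (-2.15) and Col4a6 (-1.83) fell most. Among integrins Itgb8, which activates latent TGF-beta, rose (log2 fold change 0.93 ± 0.11 (SE), adjusted p = 5.2e-07), against 12 of 13 matrix receptors that fell.

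TGF-beta and its relatives divided by ligand. Tgfb1 was at 92.8 to 122 CPM (median 102) in Veh and 37.8 to 63.7 CPM (median 48.8) in treated kidneys (log2 fold change -1.10 ± 0.14 (SE), adjusted p = 1.1e-06) and Tgfb2 fell by 1.56 ± 0.22 on the log2 scale, while Bmp7, a ligand of the same superfamily made by tubule and podocytes, rose (log2 fold change 0.86 ± 0.10 (SE), adjusted p = 3.3e-07). Of 18 genes of these pathways 12 fell and 2 rose. In Wnt signalling 16 of 20 fell (median -1.14), with Wnt4, the ligand of nephron formation that returns in injured tubules, at 28.8 to 73.5 CPM (median 41.4) in Veh, 3.02 to 11.0 CPM (median 5.57) in treated and 0.902 to 21.2 CPM (median 2.52) in WT kidneys (log2 fold change -2.86 ± 0.53 (SE), adjusted p = 1.2e-04). Among growth factor genes 11 fell and 6 rose of 23. Igfbp2, an IGF binder, was at 22.1 to 161 CPM (median 48.7) and 4.32 to 8.11 CPM (median 6.34) (log2 fold change -3.48 ± 0.51 (SE), adjusted p = 8.9e-06), and Igfbp3 and Igfbp1, other binders, rose (1.19 and 0.94). Igfbp1 did not pass with library totals alone or with limma on FPKM.

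Markers of tubule injury fell in 11 of 13 cases (median -1.01). Lcn2, the secreted injury protein NGAL, was at 283 to 709.6 CPM (median 431) in Veh, 41.8 to 119 CPM (median 75.6) in anti-miR-21-treated and 1.83 to 5.79 CPM (median 3.08) in WT kidneys (log2 fold change -2.58 ± 0.30 (SE), adjusted p = 4.7e-07). Vcam1, an adhesion molecule of failed tubule repair, was at 235 to 384 CPM (median 322) and 110.2 to 203.6 CPM (median 149) (log2 fold change -1.01 ± 0.18 (SE), adjusted p = 7.1e-05), and Sox9, the factor switched on in repairing tubules, fell by 1.61 ± 0.24 on the log2 scale. Havcr1, the phagocytic receptor KIM-1, was at 124 to 338 CPM (median 213) in Veh and 103 to 241 CPM (median 155) in treated kidneys, overlapping ranges that did not pass in edgeR (log2 fold change -0.53 ± 0.23 (SE), adjusted p = 0.057), but the call depended on the setting: it passed as lower in DESeq2 and, in edgeR, with library totals alone, upper-quartile scaling, the filter of at least 10 counts in every mouse or without A9 or A10, and with limma on FPKM. Itgb6, an integrin of injured epithelium, was the member that rose (log2 fold change 0.35 ± 0.10 (SE), adjusted p = 0.0040), but its fold change was near 0 with library totals alone. All 4 keratins fell (median -1.91), Krt18 and Krt19 by 2.53 ± 0.30 and 2.77 ± 0.46 on the log2 scale, and 8 of 9 factors of mesenchymal transition fell, Vim, vimentin, going from 358 to 421 CPM (median 387) to 152 to 249 CPM (median 191) (log2 fold change -0.98 ± 0.10 (SE), adjusted p = 2.1e-07).

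**Figure D3:**
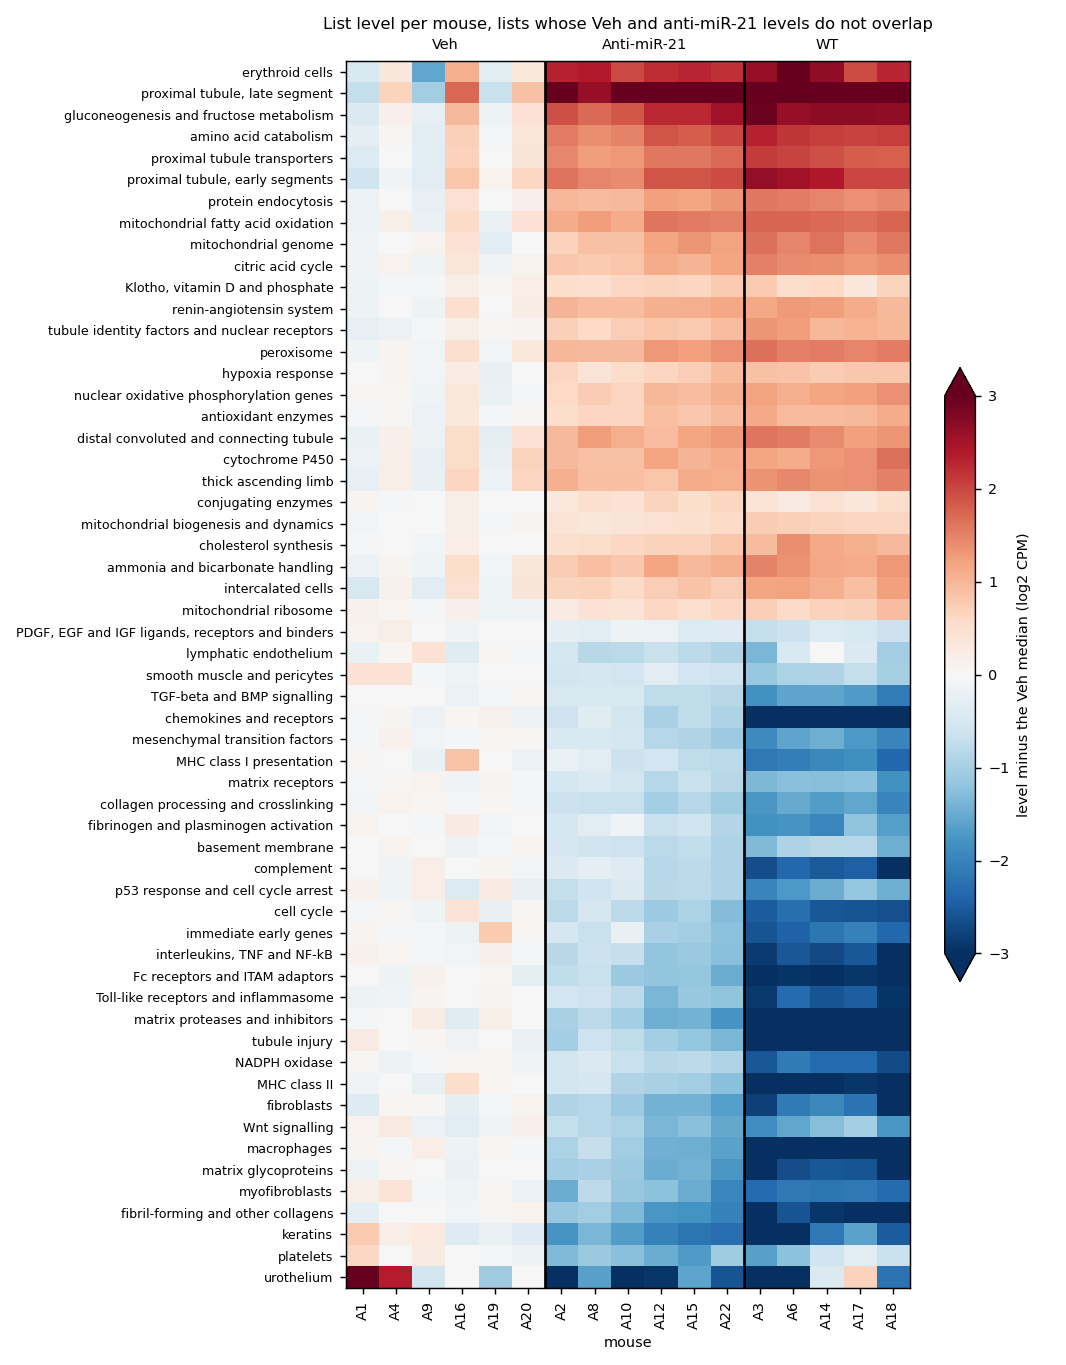
Level (mean log2 CPM) of each list in each Veh, anti-miR-21-treated and WT mouse, drawn as the difference from the Veh median (colour scale, log2), for the lists whose Veh and treated ranges did not overlap. Rising lists (red) and falling lists (blue) run the same way in all 6 treated mice, as this choice of lists requires. A22 was farthest from Veh in 42 of 57 lists and A16 the nearest Veh mouse in 37.

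Macrophage genes fell, and other myeloid lists moved less surely. All 11 macrophage markers fell (median -1.18), 10 of them also without A1 and A4. Adgre1, the F4/80 antigen, was at 42.8 to 61.1 CPM (median 52.8) in Veh, 20.3 to 36.7 CPM (median 27) in anti-miR-21-treated and 2.27 to 4.76 CPM (median 3.46) in WT kidneys (log2 fold change -0.95 ± 0.16 (SE), adjusted p = 5.3e-05). Csf1r, the growth factor receptor on which macrophages depend, was at 198 to 259 CPM (median 226) and 112 to 142 CPM (median 126) (log2 fold change -0.85 ± 0.076 (SE), adjusted p = 5.0e-08). The treated mice stayed above the WT range for Adgre1 and reached into it for Csf1r (WT 101 to 118 CPM (median 109)). The mannose receptor Mrc1 had the largest fall of the list (log2 fold change -1.88 ± 0.15 (SE), adjusted p = 3.0e-08), and Ccr2, the receptor of incoming monocytes, fell by 1.34 ± 0.18 on the log2 scale. All 8 Fc receptors and adaptors fell. Of 3 monocyte markers 2 fell, of 8 dendritic cell markers 4 and of 5 tested neutrophil markers 2, with overlapping list levels in all 3. Without A20 1 dendritic cell marker passed as lower, and without the 4 mice with the highest adipocyte levels both neutrophil calls were lost. Tyrobp, the signalling adaptor DAP12, was at 38.8 to 59.6 CPM (median 47.3) and 18.5 to 33.4 CPM (median 21.9) (log2 fold change -1.07 ± 0.16 (SE), adjusted p = 1.3e-05). Cybb, the phagocyte oxidase subunit, was at 38.7 to 52.9 CPM (median 46.8) and 14.5 to 28.8 CPM (median 20.7) (log2 fold change -1.11 ± 0.17 (SE), adjusted p = 1.8e-05), whereas Nox4, the isoform abundant in kidney tubules, rose (log2 fold change 0.46 ± 0.17 (SE), adjusted p = 0.023), a call that was lost without A15 (adjusted p = 0.058). The Nox4 call was also lost with library totals alone and with limma on FPKM.

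Lymphocyte markers moved less surely. Of 12 T cell markers 9 fell, but 6 did without A16 and 4 on the first flow cell alone. Cd3e, a subunit of the T cell receptor complex, was at 1.4 to 4.13 CPM (median 2.65) in Veh and 1.0 to 2.26 CPM (median 1.15) in treated kidneys (log2 fold change -0.95 ± 0.33 (SE), adjusted p = 0.018), overlapping ranges, and did not pass without A16 (adjusted p = 0.062). Foxp3, the regulatory T cell factor, fell with no overlap (log2 fold change -1.77 ± 0.33 (SE), adjusted p = 1.4e-04). None of the 8 NK and cytotoxic markers passed in edgeR, 2 were lower at an unadjusted p under 0.05, and DESeq2 called 1 lower. Nkg7, a granule protein, was at 0.448 to 7.84 CPM (median 1.67) and 0.760 to 2.02 CPM (median 1.29) (log2 fold change -0.97 ± 0.48 (SE), adjusted p = 0.091). Of 6 B cell markers 2 fell, while in plasma cells Jchain, the joining chain of secreted antibodies, fell (13 to 70.5 CPM (median 40.7) in Veh and 6.49 to 27.5 CPM (median 10.3) in treated kidneys, log2 fold change -1.76 ± 0.43 (SE), adjusted p = 0.0017).

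Among innate sensors and cytokines, all 16 Toll-like receptor and inflammasome genes and 21 of 22 genes of interleukins, TNF and NF-kB fell. Chemokines and receptors were less uniform, with 14 lower, 1 higher and 17 not passing of 32. Under library totals alone 23 of the chemokine list fell. Tnf was at 3.95 to 6.24 CPM (median 5.07) in Veh and 1.57 to 3.79 CPM (median 2.17) in treated kidneys (log2 fold change -1.13 ± 0.27 (SE), adjusted p = 0.0013). Ccl2, the monocyte attractant, was at 25.2 to 57.9 CPM (median 34.2) and 17.8 to 46.7 CPM (median 24.1) and did not pass (log2 fold change -0.41 ± 0.23 (SE), adjusted p = 0.12), while Ccr1, a receptor for other chemokines, fell by 2.53 ± 0.20 on the log2 scale. The one chemokine that rose was Ccl28, an epithelial product (log2 fold change 1.30 ± 0.39 (SE), adjusted p = 0.0078), a call that was lost with limma on FPKM. In antigen presentation Cd74, the class II invariant chain, was at 2947 to 4569 CPM (median 3494) and 1331 to 2105 CPM (median 1591) (log2 fold change -1.06 ± 0.15 (SE), adjusted p = 4.1e-06), and 9 of 10 class II genes and all 9 class I presentation genes fell. The Veh mouse A16 was the highest in both lists, at 7.49 and 8.12. Interferon-stimulated genes were split 11 lower and 1 higher of 19, with 7 lower on the first flow cell alone, and the call for Gbp2, a guanylate binding protein, was lost without A16 (adjusted p = 0.45) and, one at a time, without A19, A8, A10, A12, A15 or A22.

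In the complement list 9 of 14 fell and 2 rose. C3, the central component, was at 685 to 1383 CPM (median 958) in Veh and 343 to 850.3 CPM (median 552) in treated kidneys (log2 fold change -0.75 ± 0.20 (SE), adjusted p = 0.0033), and C5ar1, the anaphylatoxin receptor of myeloid cells, fell by 1.64 ± 0.22 on the log2 scale. Cfb, factor B of the alternative pathway (log2 fold change 0.69 ± 0.10 (SE), adjusted p = 1.2e-05), and Cd55, the decay accelerating factor (log2 fold change 0.51 ± 0.082 (SE), adjusted p = 2.7e-05), were the 2 that rose. Cd55 did not pass with library totals alone. Lysosomal genes divided likewise, with the leukocyte cathepsins Ctss (-1.01) and Ctsc (-1.34) falling and Lamp2 (0.52) rising.

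Cell cycle and immediate early genes mostly fell, and stress lists were mixed. Of 25 cell cycle genes 23 fell (median -0.93), with Mki67, the proliferation antigen, at 21.5 to 37.6 CPM (median 25.1) in Veh, 7.95 to 16.8 CPM (median 12.5) in anti-miR-21-treated and 1.55 to 3.90 CPM (median 1.88) in WT kidneys (log2 fold change -1.11 ± 0.19 (SE), adjusted p = 6.1e-05). Of 15 p53 and arrest genes 9 fell: Cdkn1a, the inhibitor p21, was at 41.9 to 84.6 CPM (median 70.9) and 30.0 to 40.9 CPM (median 32.2) (log2 fold change -0.99 ± 0.27 (SE), adjusted p = 0.0035), and Cdkn2a, the senescence-associated p16 and p19 locus, fell by 2.56 ± 0.52 on the log2 scale. Ccng1, a p53 target, rose (log2 fold change 0.43 ± 0.085 (SE), adjusted p = 2.3e-04), but did not pass with library totals alone or with limma on FPKM. Without the 4 mice with the highest adipocyte levels 5 of these arrest genes passed as lower. Of 18 immediate early genes 15 fell, Fos being at 10.9 to 39.9 CPM (median 16.4) and 3.99 to 16.9 CPM (median 6.92) with overlapping mice (log2 fold change -1.21 ± 0.34 (SE), adjusted p = 0.0044) and Junb falling with none (log2 fold change -1.28 ± 0.21 (SE), adjusted p = 2.9e-05). The unfolded protein response was mixed, 2 higher and 6 lower of 16, from Trib3 (-1.18) to Herpud1 (0.77), and 2 passed as lower without those 4 mice and 11 with library totals alone. Of 7 heat shock genes 3 rose and 1 fell (median 0.30), and 1 rose with library totals alone.

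**Figure D4:**
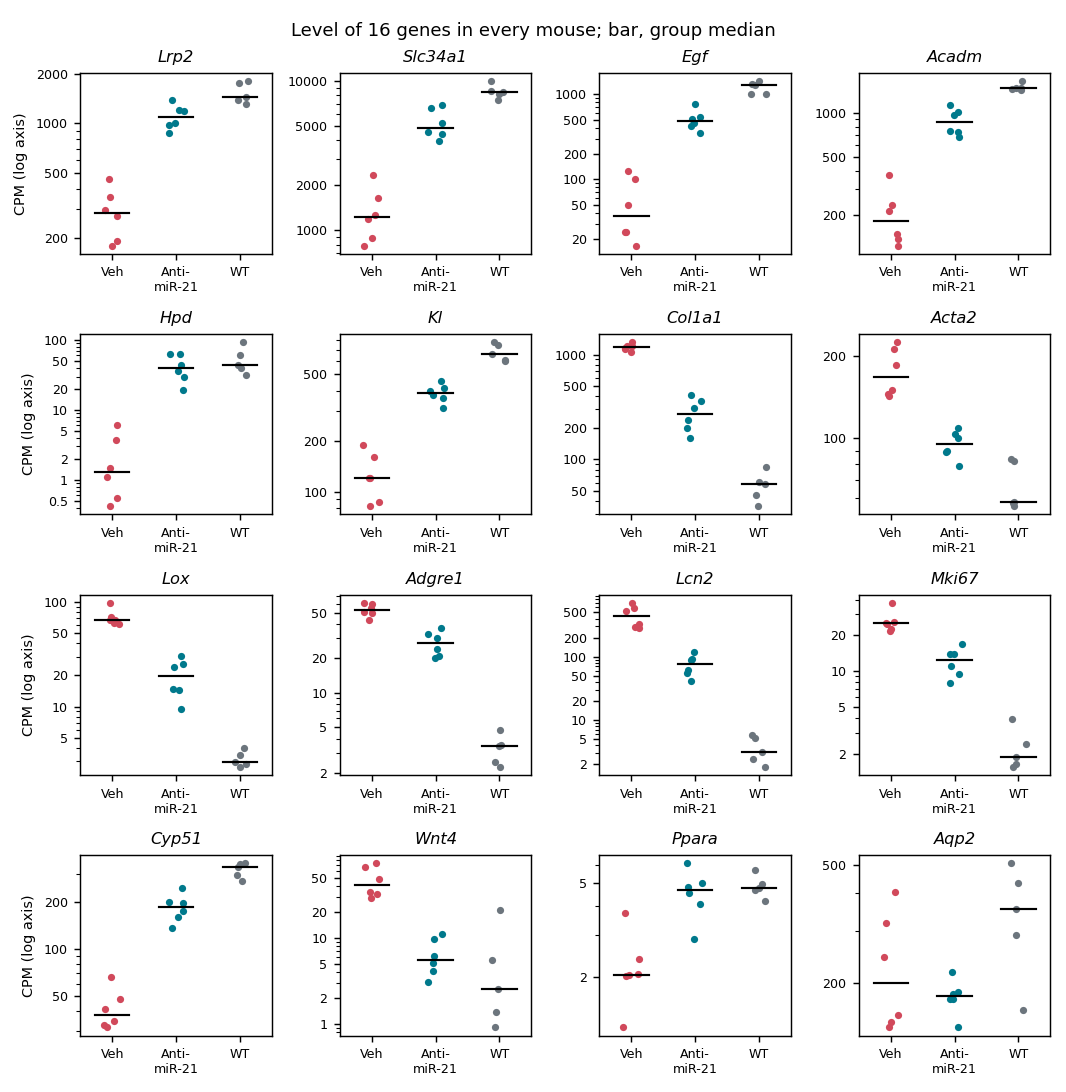
CPM (log axis) of 16 genes in every Veh, anti-miR-21-treated and WT mouse, with the group median as a bar. The 16 genes were picked from those named in the text, some of them by a rule that requires no overlap. Veh and treated mice overlap for Ppara and Aqp2 and for none of the other 14 genes, against no overlap in 36.4% of all genes tested. Treated medians lie on the WT side of the Veh medians for genes such as Lrp2, Acadm and Col1a1.

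Some cell types that are not part of the nephron or its stroma differed too. Of 9 red cell genes 7 rose, with list levels of -0.062 to 2.59 in Veh, 3.48 to 3.88 in anti-miR-21-treated and 3.45 to 5.72 in WT kidneys, and Alas2, the heme synthesis enzyme of red cell precursors, at 0.280 to 5.86 CPM (median 1.82) and 14.2 to 26.4 CPM (median 21.9) (log2 fold change 3.27 ± 0.51 (SE), adjusted p = 1.6e-05). The globin pairs in this list are near-identical copies. Platelet genes were divided: 3 of 4 fell, among them Pf4, platelet factor 4 (log2 fold change -2.52 ± 0.27 (SE), adjusted p = 1.9e-07). The other, Itga2b, rose (log2 fold change 0.62, adjusted p = 1.9e-04 in edgeR), a call that was lost with limma on FPKM. The platelet list levels did not overlap between the groups, but the summed CPM of the same genes did. Whether the number of platelets differed was not tested. Urothelial markers fell in all 4 cases (median -4.03), but 2 fell without A1 and A4, where they were highest: Krt5, of basal cells, was at 54.5 and 26.7 CPM in these and at most 7.34 CPM in the other Veh mice. None of 9 adipocyte markers passed in edgeR or DESeq2, and 0 at an unadjusted p under 0.05, with levels of -2.07 to 4.84 in Veh and -0.91 to 4.23 in treated kidneys. Without the 4 mice with the highest adipocyte levels the genes C3, Cdkn1a, Plce1, Cldn19, Scnn1g, Aqp3, Nox4, Lama1, Vmp1, Igfbp1, Trib3 and Ccl28 did not pass, and without A1 and A4 Aqp3, Nox4, Vmp1 and Igfbp1 did not. Whether the content of red cells, urothelium or fat takes part in other differences was not tested.

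The 10 largest rises among called protein-coding genes with non-overlapping groups and a mean log2 CPM of at least 1 over all mice were, after Hpd, Slc22a7, Slc7a13, Slco1a1 and Bhmt, those of Dnase1, Cyp2d12, Tbx10, Slc22a26 and Akr1c14. Dnase1 (ENSMUSG00000005980, chr16:4036942-4040024, + strand), a secreted nuclease that digests DNA, was at 6.08 to 33.2 CPM (median 13.2) in Veh, 214.8 to 868 CPM (median 464) in anti-miR-21-treated and 812 to 1489 CPM (median 984) in WT kidneys (log2 fold change 4.94 ± 0.43 (SE), adjusted p = 4.5e-08). Cyp2d12, a cytochrome P450, rose by 4.39 ± 0.65, Tbx10, a T-box factor, by 3.48 ± 0.43, and Akr1c14, a hydroxysteroid dehydrogenase, by 3.40 ± 0.51. All of these rises were in genes whose treated values lay above the highest Veh mouse, as the naming rule requires.

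The 10 largest falls by the same rule, besides Igfbp2, Mfap5, Wnt4 and Krt19, were those of Aldh1a3, Fndc1, Gabrp, Col7a1, Fcgbp and Rprm. Aldh1a3 (ENSMUSG00000015134, chr7:66390890-66427517, - strand), which makes retinoic acid, was at 3.50 to 95.0 CPM (median 9.10) in Veh and 1.28 to 3.47 CPM (median 1.85) in treated kidneys (log2 fold change -3.85 ± 1.0 (SE), adjusted p = 0.0025). The Veh mice A1 and A4 were the highest, at 95.0 and 55.7 CPM against at most 11.9 CPM in the other Veh mice, and without both the log2 fold change was -1.65 and did not pass. Col7a1, the anchoring fibril collagen, was tighter (21.2 to 39.3 CPM (median 28.5) in Veh and 2.59 to 6.16 CPM (median 4.12) in treated kidneys, log2 fold change -2.79 ± 0.22 (SE), adjusted p = 2.9e-08), and Fndc1 fell by 3.26 ± 0.38 on the log2 scale. Among the 5 lowest p-values in each direction, Rnf167, a ubiquitin ligase, rose by 0.93 ± 0.063 (adjusted p = 1.3e-08) and Cdip1, of TNF-dependent apoptosis, by 0.86 ± 0.061 (adjusted p = 1.5e-08), while Syndig1 (-3.90), Tfap2a (-1.47) and C1qtnf6 (-1.97) fell. Rnf167 was at 68.2 to 78.2 CPM (median 73.3) in Veh and 126 to 154 CPM (median 136) in treated kidneys, against 109 to 131 CPM (median 126) in WT.

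Known targets of miR-21 moved in both directions. The mature microRNA is too short for these libraries, and its hairpin gene Mir21a had 0 counts in every library, so its own level is not measured here. Vmp1, the gene that holds Mir21a, fell slightly from 198 to 269 CPM (median 259) to 185 to 233 CPM (median 203.6) (log2 fold change -0.26 ± 0.081 (SE), adjusted p = 0.0088). Of 22 known targets 3 rose and 13 fell (median -0.24). Ppara, the nuclear receptor of fatty acid oxidation, was at 1.22 to 3.73 CPM (median 2.04) in Veh and 2.88 to 6.07 CPM (median 4.67) in treated kidneys, with overlapping mice (log2 fold change 1.03 ± 0.20 (SE), adjusted p = 2.0e-04). Mpv17l, a mitochondrial and peroxisomal membrane protein, rose from 26.3 to 182 CPM (median 54.3) to 294 to 584 CPM (median 384) with none overlapping (log2 fold change 2.43 ± 0.37 (SE), adjusted p = 1.2e-05), and Timp3, an inhibitor of matrix proteases, had means of 806 and 1573 CPM (log2 fold change 0.96 ± 0.098, adjusted p = 1.4e-07). Pdcd4, the translation inhibitor, was at 39.8 to 49.2 CPM (median 45.0) and 33.6 to 43.3 CPM (median 35.3) (log2 fold change -0.29 ± 0.074 (SE), adjusted p = 0.0025). Spry1, Reck and Jag1, whose sites are printed above with those of the 3 that rose, fell by 0.60, 0.50 and 0.64 on the log2 scale. An 8-base match was therefore found in the longest annotated 3′ UTR of targets that rose and of targets that fell, 13 of the 22 holding one and 5 a 7-base match.

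Over 15090 tested genes with an annotated 3′ UTR of at least 50 bases, 346 held the 8-base match ATAAGCTA. Of these 120 rose (34.7%) and 88 fell (25.4%), compared with 29.4% and 33.8% of the 13253 genes with no match, and 32.3% and 29% of the 1491 genes with a 7-base match (ATAAGCT or TAAGCTA) only. The median log2 fold changes were 0.0077, -0.057 and -0.019. Genes with a match had longer UTRs, at a median of 2866 bases against 1004 with no match. In the class of shortest UTRs (median 339 bases with the match) 40% of 10 genes with the 8-base match rose and 20% fell, against 32.5% and 30.6% of 3717 with no match. In the class above it (median 754.5 bases) 28.6% of 28 rose and 17.9% fell, against 28.6% and 36.1% of 2889. In the next-to-longest class of UTRs (median 1596 bases with the match) 35.9% of 64 genes with the 8-base match rose and 20.3% fell, against 27.9% and 35.5% of 3460 with no match, and in the longest class (median 3732 bases) 34.8% of 244 rose and 27.9% fell, against 28.2% and 33.4% of 3187. These shares are descriptions over genes, which are not replicates, and carry no test.

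**Figure D5:**
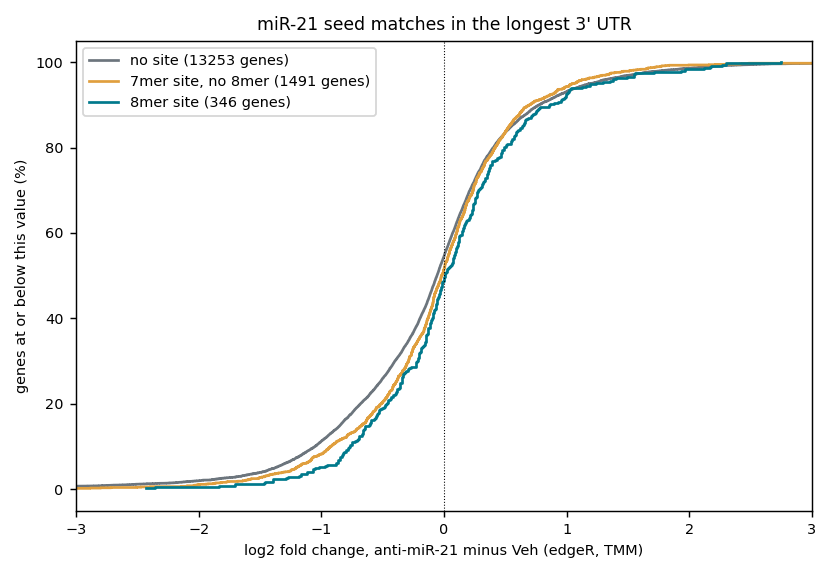
Cumulative share of genes (y axis, %) at or below each log2 fold change (x axis, anti-miR-21 minus Veh) for 346 genes with an 8-base miR-21 seed match in the longest 3′ UTR, 1491 with a 7-base match only and 13253 with none. The curve of the 8-base genes lies to the right of the others by a small amount (medians 0.0077, -0.019 and -0.057).

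Promoters, read as 250 bases before to 50 after the start of 10110 tested genes with 1 RefSeq promoter, were searched on both strands for 7 motifs. The NF-kB motif, in 3 spellings, was in few promoters. It was in 20 of 3062 of genes that fell (0.653%), 3 of 3090 of those that rose (0.0971%) and 39 of 10110 of all (0.386%). PU.1 (GAGGAAGT), of a myeloid factor, was in 4.38%, 2.2% and 3.19%, the interferon response motif (GAAA repeated after any 2 bases) in 3.92%, 2.52% and 3.27%, and AP-1 (TGANTCA) in 6.53%, 4.79% and 5.26%. Among genes called at least 2-fold, AP-1 was in 9.44% of promoters of those that fell and in 8.47% of those that rose, both above the share of all. Their promoters also had a lower median GC share, 58.3% for falls and 56.7% for rises against 60.3% of all. Promoters with AP-1 had a median of 54.2%, and whether composition takes part was not tested. The CAAT box (CCAAT) differed little, at 37%, 38.8% and 38.2%. The HNF1 motif and direct repeat 1 (AGGTCA repeated after 1 base), sites of a tubule factor and of nuclear receptors, were in only 5 and 7 promoters of all. A match of letters is not a bound site.

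Several of the named genes share bases with another gene in the annotation, and the counting strand is not given in the sources used here, so reads of such partners may be divided: Rnf167 with Slc25a11, Cdip1 with Hmox2, Dnase1 with Trap1, Hpd with Psmd9, Timp1 with Syn1, Alas2 with Apex2, Cyp51 with Akap9, Junb with Prdx2 and Slc34a1 with Pfn3. Nothing in the labels says how the 12 mice were housed or handled together beyond their flow cell and lane. On 1 flow cell were 5 treated and 4 Veh mice, and on the other 1 treated and 2 Veh mice. With flow cell as a term 10391 genes were called, 10229 of them shared with the fit without it.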

How the data were processed

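RNA was extracted from whole kidney with TRIzol and RNeasy columns and sequenced as 100 bp paired-end reads on a HiSeq 2000. The authors aligned reads in OmicSoft Studio to GRCm38 with an Ensembl gene annotation and deposited estimated counts per gene, of which 27.9% of the values above 0 were not whole, and a second table of FPKM values. Fold changes and p-values of the authors were not used. Among the FPKM columns 3 match no sample and were not used.

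The counts were rounded, genes were kept by filterByExpr (minimum count 10, minimum total 15 over 4 groups), and all 20 mice were fitted together after TMM scaling in edgeR 4.0.16 (R 4.3.3), by quasi-likelihood, contrast anti-miR-21 minus Veh, with p-values adjusted by Benjamini and Hochberg at 0.05. Log2 CPM used a prior count of 2. The script was tested on simulated data. Of 47069 genes listed, 17622 were tested. Library totals are given in the report. A floor of 3 counts served to mark list genes near 0 and for an alternative list median. The fold changes and CPM values printed are not limited by it. Sequences and 3′ UTRs were read from RefSeq and GENCODE tables on GRCm38.

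The members, the 82 gene lists and the tests were chosen with earlier results of these data known, so list counts are descriptions. Genes are named by a rule: key genes of the lists, the 10 largest rises and falls among called protein-coding genes with non-overlapping groups and a mean log2 CPM of 1 or more, at most 2 called members per direction in each list, and the 5 lowest p-values per direction. Other genes are named where said, and some that the rule names are not reported here. Mice are separate animals named by the labels (A1 to A23), and no pair of libraries within a group agreed within sampling noise. Alternatives were DESeq2 1.42.0, other scalings and filters, flow cell as a term or alone, 2 groups alone, each mouse left out and limma 3.58.1 on log2(FPKM + 1) or log2(FPKM + 0.1). 2 fits that leave out mice with high urothelium or adipocyte levels were added after seeing the data.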

Additional observations from a re-analysis of the deposited data

Results flagged for a closer look

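In groups of 6 mice, 87 named genes and 81 list levels were searched for a mouse far from the other 5, in both groups, with a gap to the nearest mouse of over 0.625 of the group's range, which chance alone gives in about 1 group in 20. There were 15 such cases in 336 groups (4.46%), no more than that share. The Veh mouse A16 gave 5 of them: log2 CPM of Mki67 was 5.24 (others 4.43 to 4.69), the level of MHC class I presentation was 8.12 (others 7.07 to 7.30), of MHC class II 7.49 (others 6.74 to 7.01), of TGF-beta and BMP signalling 5.09 (others 5.23 to 5.30) and of B cells -0.91 (others -0.19 to 0.086). In Veh, Lox was at 6.61 log2 CPM in A9 (others 5.94 to 6.15) and the immediate early gene level was 5.69 in A19 (others 4.76 to 4.97). Among treated mice A2 was high for Cd3e at 1.22 log2 CPM (others 0.097 to 0.42). A8 was high for B cells at 0.058 (others -0.95 to -0.72) and for lysosome and cathepsins at 8.19 (others 7.92 to 8.01), and low for Cdip1 at 6.61 log2 CPM (others 6.78 to 6.86). Cdkn1a was high in A10 at 5.36 log2 CPM (others 4.91 to 5.07), the smooth muscle and pericyte level was high in A12 at 4.80 (others 4.52 to 4.62), Mmp9 was low in A12 at 0.38 log2 CPM (others 0.82 to 1.06) and Fndc1 was low in A22 at 0.21 log2 CPM (others 1.41 to 2.13). All 6 mice of each group were kept.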

How the results depend on the processing

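The 10440 calls (5073 higher, 5367 lower) became 9655 to 10355 when 1 of the 12 mice was left out, with 4765 to 5271 higher and 4837 to 5292 lower. Other settings gave 10679 (DESeq2), 10660 (upper-quartile scaling), 10500 (DESeq2 size factors), 10167 (no filter), 8987 (at least 10 counts in every mouse), 10215 (only the 2 groups), 10391 (flow cell as a term) and 9855 (the first flow cell alone). Counts of higher and lower calls moved by over 1.5 times with library totals alone (2459 and 9861), with limma on log2(FPKM + 1) (2392 and 9936), on log2(FPKM + 0.1) (2414 and 9800) and without a filter (2393 and 10112), and on the second flow cell alone, with 1 treated mouse assumed to vary like the other groups (418 in all, 279 and 139). TMM factors were 1.12 to 1.26 in Veh and 0.88 to 1.04 in treated mice. Without the 2 Veh mice with the highest urothelium levels 9409 genes were called (4917 and 4492), and without the 4 mice with the highest adipocyte levels 8007 (4330 and 3677). Log2 fold changes that turned on the second flow cell alone were those of C3 (0.10), Fos (0.080), Vmp1 (0.034), Aqp3 (-0.35), Ccl28 (-0.015) and Psat1 (-0.038). With library totals alone Itgb6 (-0.00089), Lama1 (-0.0030) and Bmp4 (-0.17) turned. On FPKM, in the order pseudocount 1, 0.1 and 1 without a filter, Scnn1g (-0.0022, -0.0021 and -0.0022), Itgb6 (-0.0026, -0.0023 and -0.0026), Lama1 (-0.0069, -0.011 and -0.0069) and Bmp4 (-0.17, -0.17 and -0.17) turned. The median of the lists of principal cells, endothelium, glycolysis and heat shock turned negative with library totals alone. Lists in which a count of 5 or more calls moved by over 1.5 times, beyond those given above, were glycolysis (7 lower, 4 without the adipocyte-high mice), Klotho, vitamin D and phosphate (5 higher, 3), conjugating enzymes (10 lower, 5), the growth factor list (6 higher and 11 lower, 3 and 7), nephron development (5 lower, 3 without A20), cytosolic ribosome (35 lower, 13 without the urothelium-high mice and 54 on the first flow cell alone), and with library totals alone cytosolic ribosome (75 lower), Klotho, vitamin D and phosphate (3 higher), the growth factor list (2 higher), circadian clock (5 higher, 3) and lysosome (5 higher, 2). The causes were not tested. No paired analysis was possible because each mouse has a number of its own and the labels match no treated with a Veh mouse.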

Other observations

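Liver transcripts were present in the Veh mouse A20 and in the WT mice A17 and A18, all of the second flow cell. The column names of these libraries also carry the same lane mark, which no other library carries. In A10 and A16, of another lane of that flow cell, Alb was at 6.80 and 3.09 CPM. Alb, albumin, was at 65.1 CPM in A20, 72.2 and 96.5 CPM in A17 and A18, at most 3.09 CPM in the other 5 Veh mice and 5.15 to 7.49 CPM in anti-miR-21-treated mice. Its log2 fold change was -0.90 (adjusted p = 0.46) with all mice and 2.44 (adjusted p = 0.012) without A20. Ahsg, fetuin-A, was called lower with all mice (adjusted p = 0.019) and not without A20 (adjusted p = 0.26). Of 12 tested major urinary protein genes, products of liver that are near-identical copies, 5 were called lower and none without A20, where their adjusted p-values were 0.27 or more. Cyp3a11, a liver cytochrome P450, was at 1.83 CPM in A20 and at most 0.0562 CPM in the other 11 mice, and did not pass without A20 (adjusted p = 0.87). The source of these transcripts was not tested.

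Immunoglobulin variable genes were in none of the lists. Of 76 tested, 38 fell, with a median log2 fold change of -1.84, and their summed level was 24.9 to 100.3 CPM (median 60.2) in Veh and 9.46 to 34.8 CPM (median 14.9) in anti-miR-21-treated kidneys, so the groups overlapped. The WT median was 10.6 CPM. These genes share sequence with one another, and reads may be divided between them.

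Dio2, the deiodinase that activates thyroid hormone, was chosen after its values were seen. It was at 7.06 to 55.4 CPM in the 6 Veh mice, 0.11 to 0.67 CPM in the 6 treated mice and 0 to 0.33 CPM in WT, with a log2 fold change of -6.11 ± 0.64 (SE, adjusted p = 1.8e-07). Its highest values were in A1 and A4 (36.7 and 55.4 CPM), and the other 4 Veh mice, at up to 22.9 CPM, were also above every treated mouse.

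Among annotated antisense and lincRNA genes more were called higher than lower. Of 496 tested antisense genes 136 rose and 55 fell (median log2 fold change 0.17), and of 433 lincRNA genes 116 rose and 60 fell (median 0.10), against 4567 and 5040 of 15339 protein-coding genes (median -0.050). Of 278 processed transcripts 60 rose and 54 fell, and of 7 sense-overlapping genes 0 and 3. Reads of antisense genes and their partners cannot be told apart without strand.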
